A study of Mus musculus with 8 samples.

Results

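The p53 target genes described here are 10 genes named in a list, with no threshold on their measured values: Trp53, which encodes p53 itself, and Mdm2, Cdkn1a, Gdf15, Aen, Ccng1, Bax, Bbc3, Sesn2 and Btg2. All 10 were found by symbol among the 20245 entries of each deposited file, and all 10 passed the filter on low values. The levels come from whole kidneys of C57BL/6 mice, with oligo(dT)-selected RNA read in 8 libraries that make up 4 groups of 2. The WT_DMSO group is wild-type kidney with the vehicle DMSO, and the WT_FP group is wild-type kidney with FP. The PKD_DMSO and PKD_FP groups are kidneys with autosomal dominant polycystic kidney disease (ADPKD in the series design) under the same treatments. FP is flavopiridol per the series design, a drug that blocks cyclin-dependent kinases, CDK9 of the elongation factor P-TEFb among them. The sources used here do not give the mutated gene, the driver of any Cre, the dose, the length of treatment or the ages. Nothing states whether the libraries of a group came from separate mice, so the spread behind each p-value is that between these libraries and may be technical.

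The p53 protein is a transcription factor that is held at a low level by Mdm2, a ubiquitin ligase that marks it for breakdown. When DNA damage, nucleolar stress or oncogene signals loosen that hold, p53 accumulates and raises genes that stop the cell cycle, start apoptosis, change metabolism or feed back on p53, and Mdm2 is itself among them. Much of this control acts on the protein, so the Trp53 transcript is a poor gauge of p53 activity, and several of the targets also answer to other factors. In the kidney, p21, the product of Cdkn1a, has been studied in injured tubules, where it holds back cell division.

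The unit of the values is FPKM (fragments scaled to transcript length and to library size), which allows levels of different genes to be compared per length. Summed FPKM ran from 485924 to 572661 per library and 12788 to 13810 genes reached 1 FPKM. The number of reads is unknown, so no counting interval was computed. Pearson correlations of log2(FPKM + 1) between libraries, across genes, ran from 0.87 to 0.99. Kidney markers were present in all groups: the sum of 10 proximal tubule genes was 5112 to 6264 FPKM in WT_DMSO, 2742 to 5901 in WT_FP, 553 to 994 in PKD_DMSO and 650 to 924 in PKD_FP. WT_FP replicate 2 stood apart, with a summed level of 8 adipocyte genes of 1611 FPKM against 113 to 367 in the other 7 libraries, and with the low value of the WT_FP proximal tubule range. Values of the 10 genes in comparisons of WT_FP with another group are therefore given with and without that library. In the interaction this is done for Sesn2, Cdkn1a, Bbc3 and Btg2.

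Cdkn1a and Ccng1 carry the closest matches to a p53 site near the start of transcription, and the sequences of 4 promoters are shown. Whether p53 acts through these stretches was not tested. In each 60-base stretch the capitals mark the 20 bases with the fewest mismatches to a p53 site, a pair of p53 half-sites with no gap. A marked stretch need not hold an exact pair. The strand is that of the gene (RefSeq sequence, build GRCm38.p6, the assembly of mm10). Cdkn1a (chr17:29090908-29090967, plus strand, site 51 to 32 bases before the start): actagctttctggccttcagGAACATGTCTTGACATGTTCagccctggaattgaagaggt
Ccng1 (chr11:40755442-40755501, minus strand, site 195 to 176 bases before the start): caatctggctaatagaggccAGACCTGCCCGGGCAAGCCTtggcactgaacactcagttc
Trp53 (chr11:69580264-69580323, plus strand, site 75 to 56 bases before the start): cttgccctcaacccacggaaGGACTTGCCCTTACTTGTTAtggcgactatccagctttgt
Bax (chr7:45467070-45467129, minus strand): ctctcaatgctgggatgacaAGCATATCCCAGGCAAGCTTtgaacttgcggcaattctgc
The sites of Cdkn1a and Ccng1 differ from the p53 site at 1 base each, and those of Trp53 and Bax at 3.

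A promoter window held 250 bases before and 50 bases after each RefSeq start, and the 10 genes had 15 such windows. A site with at most 1 mismatch occurred in 0.107% of 27025 genes, and with at most 3 mismatches in 7.20%. Aen and Bbc3 also reached 3 mismatches, with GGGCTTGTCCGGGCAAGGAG at chr7:78895937-78895956 (plus strand) and CTGCAAGCCCCGACTTGTCC at chr7:16309486-16309505 (plus strand). The best match had 4 mismatches in Btg2 and 5 in Mdm2, Gdf15 and Sesn2. At least 1 p53 half-site was present in a window of 6 genes (Trp53, Mdm2, Cdkn1a, Aen, Ccng1 and Bax), against 9.55% of all genes. A second Cdkn1a window, at a RefSeq start farther along the gene (17:29093519-29093818), had no half-site and a best match with 5 mismatches. The Cdkn1a site described here is that of the first start, whereas the FPKM values do not separate the starts. Of the 10, Cdkn1a alone had a pair of half-sites within 13 bases of each other, which 0.074% of genes had. The earlier half-site of that pair lies before the marked Cdkn1a stretch, so this share is not that of the marked stretch. These matches describe the letters in the window and nothing more, since a p53 site can lie outside it.

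In wild-type kidney under vehicle the levels spanned from Bbc3 at a mean of 1.96 FPKM to Bax at 79.3. The order was Bax, Ccng1 (38.9), Trp53 (22.7) and Mdm2 (17.2), each apart from the next. Btg2, Aen, Gdf15, Sesn2 and Cdkn1a followed between 11.2 and 6.78 FPKM, and neighbours in that run overlapped. Bbc3 was the lowest. In polycystic kidney under vehicle the order was different: Gdf15 came first at 97.9 FPKM, then Bax (77.8), Cdkn1a (67.5) and Ccng1 (50.2), each apart from the next. Trp53 (38.1) and Btg2 (36.1) overlapped, and Mdm2 (19.9), Aen (18.7), Sesn2 (16.0) and Bbc3 (7.37) followed without overlap. Cdkn1a was thus above Bbc3 alone in WT_DMSO, and below Gdf15 and Bax alone in PKD_DMSO. In WT_FP the first 3 places were those of WT_DMSO, and Mdm2, Cdkn1a, Gdf15, Aen, Btg2 and Sesn2 overlapped as neighbours between 20.8 and 9.67 FPKM. In PKD_FP, Bax led at 125.5 FPKM before Gdf15 at 95.1, and Sesn2 was last at 6.02, with a range that overlapped that of Bbc3 at 7.86.

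**Figure D1:**
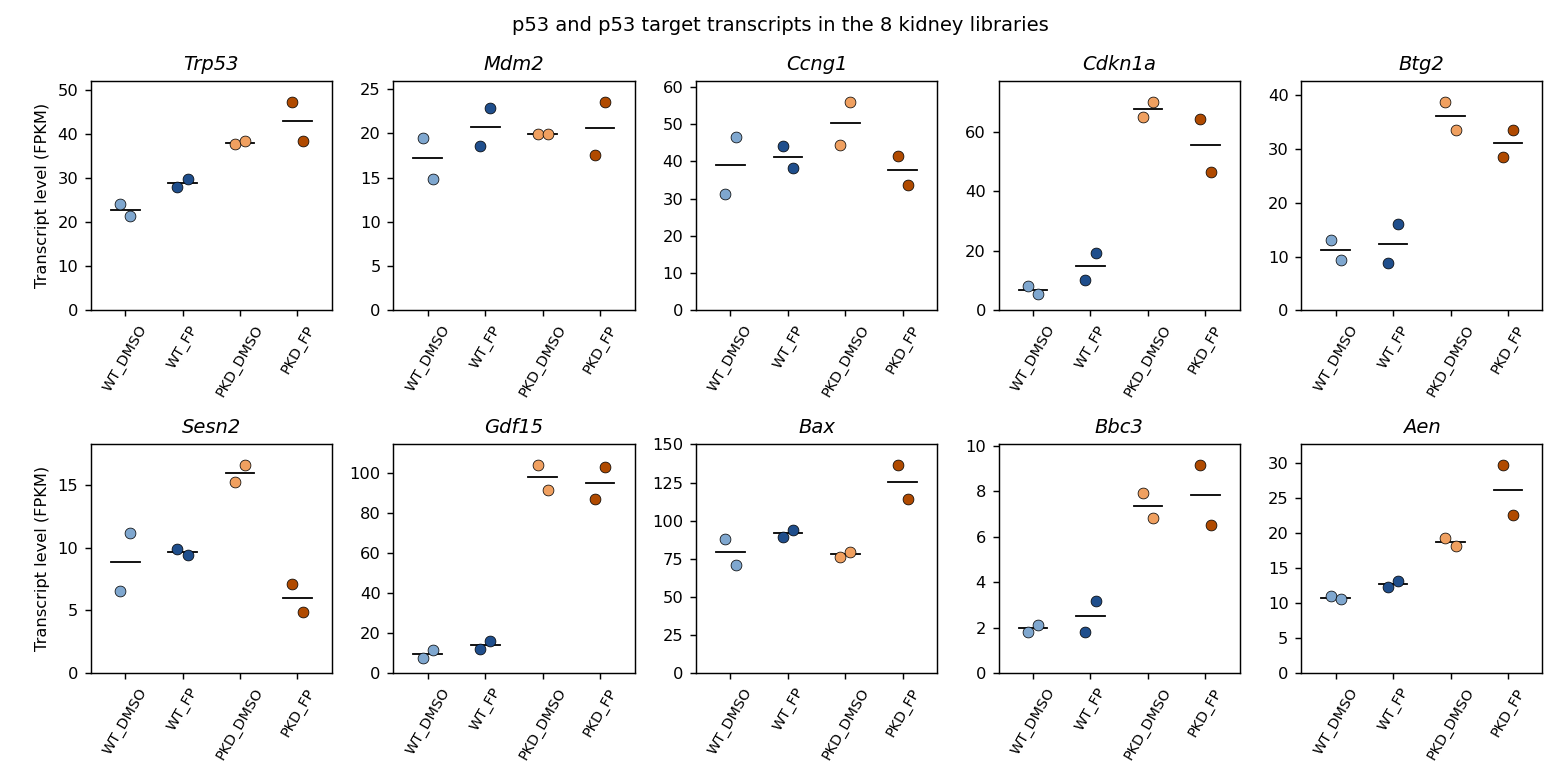
FPKM of the 10 p53 target genes in each of the 8 libraries on linear axes that start at 0, 1 panel a gene, with points for libraries and black lines for group means (n = 2 libraries a group). Gdf15 and Cdkn1a sit 10.2 and 9.95 times higher in PKD_DMSO than in WT_DMSO, while the points of Mdm2 and Bax lie close together across the genotypes under vehicle.

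The comparison of PKD_DMSO with WT_DMSO asks how the polycystic kidney differs from the wild-type kidney under vehicle. Of the 10 genes, 6 rose in the polycystic kidney (Trp53, Cdkn1a, Gdf15, Aen, Bbc3 and Btg2), none fell and 4 did not pass the test (Mdm2, Ccng1, Bax and Sesn2). Among all 14391 genes tested, 22.3% were called, 14.8% higher and 7.52% lower. The median log2 difference of the 10 genes was 0.78, beside 0.12 over all genes. Scaling the libraries so that the all-gene median is -0.01 turned the share of higher calls among all calls from 66.3% into 53.8% (median-of-ratios) and 52.8% (quantile). Tests here and below are limma's on log2(FPKM + 1) with Benjamini-Hochberg adjustment over all genes tested and a threshold of 0.05. Differences are log2 values with their standard error (SE) and 95% confidence interval, and a fold is a ratio of mean FPKM. In whole kidney, fewer cells of a type and less RNA per cell cannot be told apart.

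Trp53 (11:69580348-69591873 on GRCm38.p6, plus strand) was 24.05 and 21.36 FPKM in the WT_DMSO libraries and 37.81 and 38.46 in the PKD_DMSO libraries. Both PKD_DMSO libraries were above both WT_DMSO libraries. The transcript was 1.68 times higher, a log2 difference of 0.73 ± 0.15 (SE; 0.37 to 1.08; adjusted p = 0.01948). That call was lost with median-of-ratios scaling (0.58), or when WT_DMSO replicate 2 (0.64), PKD_DMSO replicate 1 (0.74) or PKD_DMSO replicate 2 (0.71) was left out. A processed Trp53 pseudogene (Trp53-ps) exists in the mouse, and reads could be shared with it.

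Mdm2 (10:117688875-117710758, minus strand), the ligase that p53 induces and that removes p53, was 19.45 and 14.90 FPKM in WT_DMSO and 19.90 and 19.95 in PKD_DMSO. The PKD_DMSO libraries were just above the higher WT_DMSO library. The log2 difference was 0.21 ± 0.20 (-0.27 to 0.70; adjusted p = 0.4767). The ratio of Mdm2 to Trp53 FPKM was 0.81 and 0.70 in WT_DMSO and 0.53 and 0.52 in PKD_DMSO. Ccng1 (11:40748552-40755309, minus strand), encoding cyclin G1, a p53 target that acts back on the Mdm2 and p53 pair, was 31.27 and 46.50 FPKM in WT_DMSO and 44.44 and 55.98 in PKD_DMSO. These groups overlapped, and the log2 difference was 0.38 ± 0.23 (-0.17 to 0.93; adjusted p = 0.2775).

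Cdkn1a (17:29090979-29100722, plus strand), encoding the cyclin-dependent kinase inhibitor p21, was 8.14 and 5.42 FPKM in WT_DMSO and 64.97 and 69.97 in PKD_DMSO. The groups were far apart. It rose 9.95-fold, a log2 difference of 3.16 ± 0.33 (2.38 to 3.94; adjusted p = 0.002921). Measured against Trp53 in the same library, Cdkn1a FPKM was 0.34 and 0.25 times Trp53 in WT_DMSO and 1.72 and 1.82 times Trp53 in PKD_DMSO. Btg2 (1:134074865-134079155, minus strand), an antiproliferative protein that recruits the mRNA deadenylation machinery, was 13.02 and 9.43 FPKM in WT_DMSO and 38.80 and 33.49 in PKD_DMSO. Both PKD_DMSO libraries were above both controls, and Btg2 rose 3.22-fold (log2 1.62 ± 0.29; 0.94 to 2.29; adjusted p = 0.01231). Its call was lost without WT_DMSO replicate 2 (1.40), PKD_DMSO replicate 1 (1.51) or PKD_DMSO replicate 2 (1.72).

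Gdf15 (8:70629393-70632470, minus strand), a secreted stress hormone of the TGF-beta family that signals to the brainstem, was 7.65 and 11.51 FPKM in WT_DMSO and 104.17 and 91.62 in PKD_DMSO. It was the most abundant of the 10 genes in the polycystic kidney and rose 10.2-fold, a log2 difference of 3.25 ± 0.23 (2.71 to 3.78; adjusted p = 0.001515). Sesn2 (4:132492804-132510456, minus strand), a leucine sensor that restrains mTORC1, was 6.52 and 11.21 FPKM in WT_DMSO and 15.24 and 16.66 in PKD_DMSO. The groups did not overlap and the means differed 1.80-fold, but the log2 difference of 0.82 ± 0.26 (0.19 to 1.45) did not pass (adjusted p = 0.06664). Without WT_DMSO replicate 2 it passed, at 1.17.

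Among the genes of cell death, Bbc3 (7:16308398-16318334, plus strand), encoding the BH3-only protein PUMA, was the least abundant of the 10 in this comparison, with 1.82 and 2.10 FPKM in WT_DMSO and 7.93 and 6.81 in PKD_DMSO. The groups were apart, and Bbc3 rose 3.76-fold (log2 1.50 ± 0.25; 0.90 to 2.10; adjusted p = 0.01036). Its call was lost without PKD_DMSO replicate 1 (1.40) or PKD_DMSO replicate 2 (1.59). Aen (7:78895927-78911209, plus strand), a nuclease that aids the breakdown of DNA in apoptosis, was 10.93 and 10.54 FPKM in WT_DMSO and 19.21 and 18.09 in PKD_DMSO. It was 1.74 times higher, with a log2 difference of 0.74 ± 0.16 (0.36 to 1.13; adjusted p = 0.02219). The Aen call was lost with median-of-ratios scaling (0.60), with quantile normalization (0.57) and without any 1 of the 4 libraries compared: WT_DMSO replicate 1 (0.77), WT_DMSO replicate 2 (0.72), PKD_DMSO replicate 1 (0.70) or PKD_DMSO replicate 2 (0.78). Bax (7:45461695-45466903, minus strand), which opens the outer mitochondrial membrane, was 87.93 and 70.64 FPKM in WT_DMSO and 75.93 and 79.65 in PKD_DMSO. The PKD_DMSO values lay inside the WT_DMSO range, and the log2 difference was -0.02 ± 0.17 (-0.42 to 0.38; adjusted p = 0.9472).

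By the plain measure of whether the libraries of the groups overlap, 8 of the 10 genes were higher in both PKD_DMSO libraries than in both WT_DMSO libraries, and 41.2% of all genes tested were, with 24.5% lower and none of the 10 among those. Without either PKD_DMSO library the count of calls was 2 in place of 6, and these were Cdkn1a and Gdf15.

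**Figure D2:**
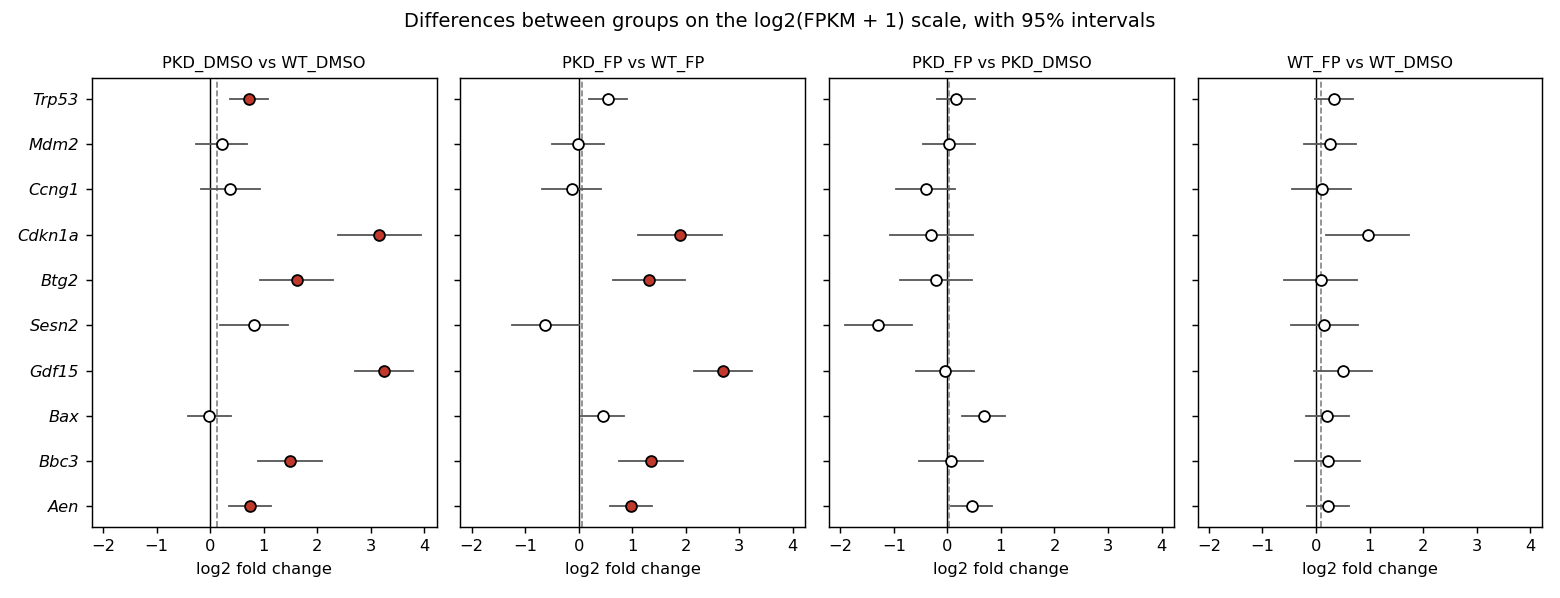
Log2 difference of log2(FPKM + 1) for each of the 10 genes in the genotype comparisons and the drug comparisons, with 95% confidence intervals from limma, red points where the adjusted p is under 0.05 and a dashed line at the median of all genes. Red points mark 6 genes in PKD_DMSO vs WT_DMSO and 5 in PKD_FP vs WT_FP, and both drug panels have none.

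Marker genes of cell types and of tubule injury moved in the same comparison. All 12 macrophage and myeloid genes rose, and their summed level was 74.9 to 119.9 FPKM in WT_DMSO and 669 to 1272 in PKD_DMSO. All 8 tubule injury genes rose too, from sums of 1465 to 1561 FPKM to sums of 13413 to 13485. Of the 9 fibroblast and myofibroblast genes 5 rose (sums of 153 to 404 and 702 to 1442 FPKM), and of the 10 proximal tubule genes 6 fell. No gene of these 4 lists was at 0 in any library. All 6 tested erythroid genes fell (sums of 1707 to 1857 and 204 to 286 FPKM), with 1 listed gene at 0 in each PKD_DMSO library. Of 7 thick ascending limb and distal convoluted tubule genes 4 fell, and of 6 intercalated cell genes 4 fell. The part of all these genes in the differences of the p53 target genes was not tested.

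The comparison of PKD_FP with WT_FP asks the same of genotype under flavopiridol, in 4 libraries that the first comparison did not use, although the model shares its estimate of the spread. Here 5 of the 10 genes rose (Cdkn1a, Gdf15, Aen, Bbc3 and Btg2), none fell and 5 did not pass, where 8.71% of all genes were called higher and 5.23% lower. All 5 were also called under vehicle. The median log2 difference of the 10 genes was 0.76, beside 0.07 over all genes. Without WT_FP replicate 2 the count was again 5. It was 1 without WT_FP replicate 1 or PKD_FP replicate 1, and 2 without PKD_FP replicate 2.

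Gdf15 was 11.96 and 15.74 FPKM in WT_FP and 87.00 and 103.13 in PKD_FP, 6.86 times higher (log2 2.70 ± 0.23; 2.16 to 3.24; adjusted p = 0.004101), and 2.88 on the log2 scale without WT_FP replicate 2. Cdkn1a was 10.03 and 19.36 FPKM in WT_FP and 64.28 and 46.40 in PKD_FP, 3.77 times higher (log2 1.89 ± 0.33; 1.11 to 2.67; adjusted p = 0.01791). Its groups were apart, but WT_FP replicate 2, the library with the adipocyte genes, held the higher wild-type value. Without that library the Cdkn1a difference was 2.33. The Cdkn1a call was lost without WT_FP replicate 1 (1.45), PKD_FP replicate 1 (1.66) or PKD_FP replicate 2 (2.12), whereas that of Gdf15 was kept in every alternative run.

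Aen was 12.27 and 13.18 FPKM in WT_FP and 29.77 and 22.62 in PKD_FP (2.06-fold; log2 0.97 ± 0.16; adjusted p = 0.01608). Bbc3 was 1.81 and 3.19 FPKM in WT_FP and 9.18 and 6.53 in PKD_FP (3.14-fold; log2 1.35 ± 0.25; adjusted p = 0.02083). Btg2 was 8.75 and 15.99 FPKM in WT_FP and 28.50 and 33.63 in PKD_FP (2.51-fold; log2 1.31 ± 0.29; adjusted p = 0.03148). The groups were apart for all 3 genes, and without WT_FP replicate 2 the differences were 1.02, 1.64 and 1.71 in that order. That of Aen was lost without WT_FP replicate 1 (0.93) or PKD_FP replicate 1 (0.78). That of Bbc3 was lost without WT_FP replicate 1 (1.06), PKD_FP replicate 1 (1.13) or PKD_FP replicate 2 (1.57). That of Btg2 was lost with the replicate block (1.31), and without WT_FP replicate 1 (0.91), PKD_FP replicate 1 (1.43), PKD_FP replicate 2 (1.20) or either PKD_DMSO replicate (1.31). All 3 were also lost when only the libraries of these groups were fitted, which leaves 2 of the 5 calls.

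Trp53 was 28.09 and 29.84 FPKM in WT_FP and 47.39 and 38.46 in PKD_FP, with groups apart and a log2 difference of 0.54 ± 0.15 (0.19 to 0.90; adjusted p = 0.05762) that missed the threshold. Bax was 89.49 and 93.61 FPKM in WT_FP and 136.78 and 114.25 in PKD_FP, again apart and not called (log2 0.45 ± 0.17; adjusted p = 0.1275). Sesn2 was the 1 gene of the 10 whose libraries were all lower in PKD_FP (7.15 and 4.89 FPKM) than in WT_FP (9.90 and 9.43), without a call (log2 -0.62 ± 0.26; -1.25 to 0.01; adjusted p = 0.1627). Mdm2 was 18.62 and 22.89 FPKM in WT_FP and 17.57 and 23.57 in PKD_FP, and Ccng1 was 44.19 and 38.16 and then 41.52 and 33.75, so both overlapped. Without WT_FP replicate 2 the differences were 0.59 for Trp53, 0.48 for Bax, -0.65 for Sesn2, -0.23 for Ccng1 and 0.12 for Mdm2, which was -0.02 with it. In all, 7 of the 10 genes were higher without overlap, as were 34.6% of all genes, and 1 was lower, as were 25.2% of all genes.

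Cell type markers moved in this comparison as well. Of 12 macrophage and myeloid genes 9 rose (sums of 120 to 137 FPKM in WT_FP and 659 to 911 in PKD_FP), and all 8 tubule injury genes rose (1245 to 1969 and 11885 to 13007). Of 9 fibroblast and myofibroblast genes 3 rose (296 to 386 and 1008 to 1884). Of 10 proximal tubule genes 6 fell, and of 6 tested erythroid genes 3 fell (1602 to 1735 and 951 to 976). No gene of these 5 lists was at 0 in these libraries, and their part in the differences of the 10 genes was not tested.

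The comparison of PKD_FP with PKD_DMSO asks what flavopiridol does in the polycystic kidney. None of the 10 genes passed limma's test, 3 had an unadjusted p under 0.05, and over all genes 2 of 14391 (0.0139%) were called, 0.00695% in each direction, with 1488 higher and 1316 lower at an unadjusted p under 0.05. Sesn2 had the largest difference of the 10. It was 15.24 and 16.66 FPKM in PKD_DMSO and 7.15 and 4.89 in PKD_FP, a ratio of 0.377 with no overlap (log2 -1.29 ± 0.26; -1.92 to -0.66; limma adjusted p = 0.1249). Bax went the other way, from 75.93 and 79.65 to 136.78 and 114.25 FPKM, a ratio of 1.61 with no overlap (log2 0.68 ± 0.17; 0.28 to 1.08; limma adjusted p = 0.1319). Aen was 19.21 and 18.09 against 29.77 and 22.62 FPKM (log2 0.46 ± 0.16; 0.07 to 0.84; limma adjusted p = 0.2018).

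Gdf15, the most abundant of the 10 in PKD_DMSO, differed by -0.04 (-0.58 to 0.49; adjusted p = 0.937) between PKD_FP and PKD_DMSO, and its libraries overlapped. Cdkn1a was below both PKD_DMSO libraries in both PKD_FP libraries, at a log2 difference of -0.30 ± 0.33 (-1.08 to 0.48; adjusted p = 0.6416). Ccng1 was also lower without overlap, at 41.52 and 33.75 FPKM against 44.44 and 55.98 (log2 -0.40 ± 0.23; adjusted p = 0.383). Trp53 (0.16), Bbc3 (0.07), Mdm2 (0.03) and Btg2 (-0.21) overlapped between the groups, with adjusted p of 0.591, 0.9087, 0.9528 and 0.7118. Of all genes tested, 31.4% were higher and 25.2% lower without overlap, beside 2 and 3 of these 10. Erythroid genes moved in the same comparison: 1 of 6 tested (Hbb-bt) rose, and the sum of the 7 listed was 204 to 286 FPKM in PKD_DMSO and 951 to 976 in PKD_FP, with 1 gene at 0 in each PKD_DMSO library. Their part was not tested.

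**Figure D3:**
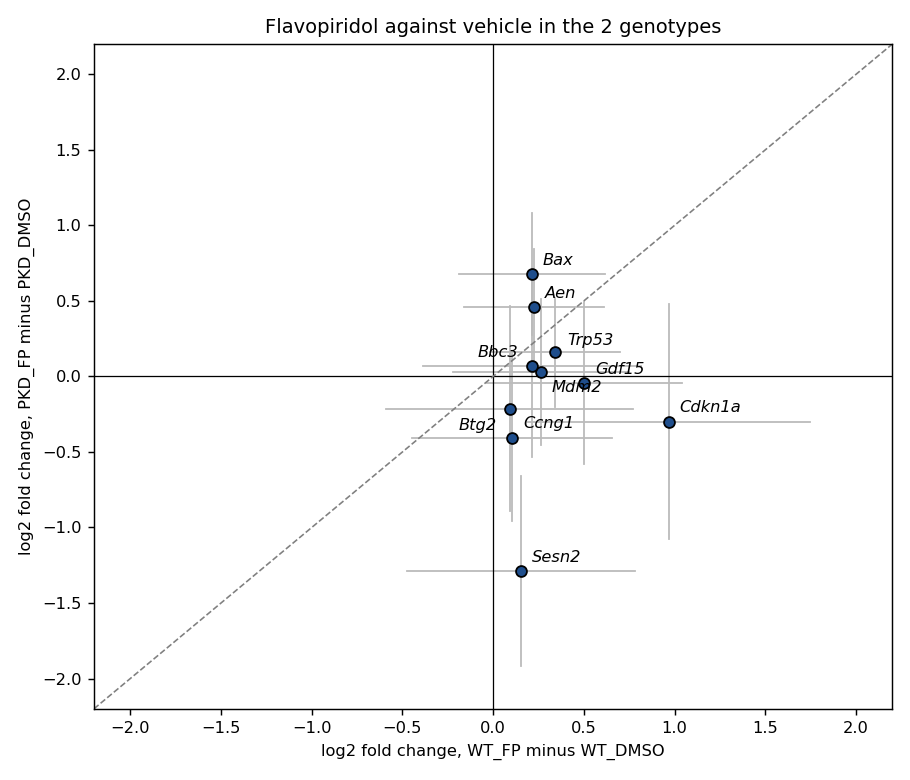
Log2 difference of each of the 10 genes with flavopiridol in polycystic kidney (vertical axis, PKD_FP vs PKD_DMSO) against that in wild-type kidney (horizontal axis, WT_FP vs WT_DMSO), with 95% confidence intervals and a dashed line of equal difference. Sesn2 lies lowest at -1.29 and Bax highest at 0.68 on the vertical axis, and Cdkn1a is farthest to the right at 0.97.

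The comparison of WT_FP with WT_DMSO asks the same in wild-type kidney. Limma called none of the 10 genes and 0 of all genes (0.00%), with 131 higher and 52 lower at an unadjusted p under 0.05, among them 1 of the 10. With all libraries the 10 differences were above 0, with a median of 0.22 beside 0.09 over all genes. Without WT_FP replicate 2, Btg2 was at -0.31 and Bbc3 at -0.07, while Mdm2 (0.12), Ccng1 (0.21) and Sesn2 (0.19) stayed above 0. Without WT_DMSO replicate 1, Ccng1 was at -0.18 and Sesn2 at -0.20, and without WT_DMSO replicate 2, Btg2 was at -0.12. The sign was not kept either by Ccng1 with median-of-ratios scaling (-0.02), nor by Btg2 with that scaling (-0.02) or quantile normalization (-0.01). Cdkn1a was 8.14 and 5.42 FPKM in WT_DMSO and 10.03 and 19.36 in WT_FP, a ratio of 2.17 (log2 0.97 ± 0.33; 0.19 to 1.75; limma adjusted p = 1). Without WT_FP replicate 2, which held the value of 19.36, the Cdkn1a difference was 0.53. Gdf15 (0.50 ± 0.23), Trp53 (0.34 ± 0.15), Aen (0.23) and Bax (0.21) were likewise higher without overlap, and without that library they were 0.32, 0.30, 0.18 and 0.18. Those 5 genes stand beside 16.6% of all genes that were higher without overlap, and 5.32% were lower. The summed adipocyte level in WT_FP was 185 FPKM in replicate 1 and 1611 in replicate 2, 7 of 8 listed genes were tested and none was called, and 1 was at 0 in replicate 1. Their part in the Cdkn1a value was not tested.

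The interaction asks whether the drug difference depends on genotype. Limma called 0 of 14391 genes, with 640 higher and 976 lower at an unadjusted p under 0.05, and 2 of the 10 genes were among the latter. For Sesn2 the drug difference in polycystic minus that in wild-type kidney was -1.44 ± 0.37 (-2.33 to -0.55; limma adjusted p = 0.384), and -1.48 without WT_FP replicate 2. For Cdkn1a it was -1.27 ± 0.46 (-2.37 to -0.17; limma adjusted p = 0.4202), and -0.82 without that library. For Bax it was 0.46 ± 0.24 (-0.10 to 1.03; limma adjusted p = 0.5225). The other 7 ranged from -0.55 for Gdf15 to 0.23 for Aen, with limma adjusted p of 0.5708 to 0.914. Among them, Bbc3 (-0.15) and Btg2 (-0.30) changed sign without WT_FP replicate 2, to 0.14 and 0.10. The comparisons of PKD_DMSO with WT_DMSO and of PKD_FP with PKD_DMSO share the PKD_DMSO libraries, so the values of Sesn2 in them (0.82 and -1.29) are not independent of each other.

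The 10 genes fall into different patterns when the spread of log2(FPKM + 1) over the 8 libraries is split by source. Genotype took 97.2% of it for Gdf15, 92.3% for Bbc3, 89.3% for Btg2, 88.5% for Cdkn1a, 81.2% for Aen and 80.0% for Trp53. Drug took the largest share for Bax (58.2%), and the interaction for Sesn2 (50.3%). For Mdm2 and Ccng1 most of the spread lay between replicates of a group (67.7% and 57.0%). These shares describe 8 libraries and are not a test.

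As a measure of likeness, each gene was centred on its mean over the 8 libraries and the root mean square difference of the log2 values was taken. Of the pairs among the 10, Trp53 and Aen were closest (0.165), and Bbc3 and Btg2 were 0.251 apart. Cdkn1a and Gdf15, the genes with the largest genotype differences, were 0.454 apart. Among 13162 genes, the 5 profiles nearest to Cdkn1a were Maff (0.20), F3 (0.25), S100a14 (0.27), Gprc5a (0.27) and Bst1 (0.31). The nearest to Trp53 were Ncapg2, Manbal, Efnb1, Sfpq and Cep55, at 0.09 to 0.10. The nearest to Mdm2, a gene with little spread, were Zmynd11, Taf1, Dhx30, Zfp62 and Sirt1, at 0.05 each.

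A wider list of 52 other p53 targets, chosen by name, had 51 in the files and 48 tested. In PKD_DMSO against WT_DMSO 11 rose and 2 fell, with a median of 0.28 beside 0.12 over all genes, where 14.8% rose and 7.52% fell. In PKD_FP against WT_FP 12 rose and 2 fell, with a median of 0.07 that was also the all-gene median, where 8.71% rose and 5.23% fell, and 9 of the higher and both of the lower calls were shared by the genotype comparisons. None was called in either drug comparison or in the interaction. The counts depended on single libraries: the 11 higher calls ranged from 4 to 9 when each library was left out, and the 12 from 1 to 12. Under vehicle the higher count was 6 without WT_DMSO replicate 1, 5 without WT_DMSO replicate 2 or PKD_DMSO replicate 1, and 4 without PKD_DMSO replicate 2. Under flavopiridol it was 3 without WT_FP replicate 1, 8 without WT_FP replicate 2, 4 without PKD_FP replicate 1 and 1 without PKD_FP replicate 2. The pair of lower calls became 1 without WT_DMSO replicate 2 or PKD_DMSO replicate 2 under vehicle, and without WT_FP replicate 1 or either PKD_FP library under flavopiridol.

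Over all genes 14.8% rose in PKD_DMSO vs WT_DMSO and 8.71% in PKD_FP vs WT_FP. Of 10 tested targets listed by name under arrest and feedback, 6 rose in PKD_DMSO and 7 in PKD_FP against their wild-type groups. Their medians were 0.77 and 1.08, and whether each of them stops division in these kidneys was not tested. With each library left out these counts were 1 to 5 and 0 to 7. Sfn, encoding 14-3-3 sigma, a G2 arrest protein, was 11.55 and 12.43 FPKM in WT_DMSO and 73.63 to 96.56 in PKD_DMSO (log2 2.72 ± 0.30; adjusted p = 0.003528). Plk2, a kinase of the centrosome cycle, rose by log2 1.70 ± 0.33 (adjusted p = 0.01582; lost without WT_DMSO replicate 2 at 1.36 or PKD_DMSO replicate 2 at 1.54). Psrc1 rose by 0.96 (adjusted p = 0.0359), a call lost in 11 of 15 alternatives, and by 1.45 in PKD_FP against WT_FP. Gadd45a, a growth arrest and DNA damage protein, rose by 0.76 ± 0.16 (adjusted p = 0.02104). The Gadd45a call was lost with median-of-ratios scaling (0.61), or when leaving out WT_DMSO replicate 1 (0.77), WT_DMSO replicate 2 (0.76), PKD_DMSO replicate 1 (0.68) or PKD_DMSO replicate 2 (0.84).

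Of 11 tested targets in cell death, 3 rose under vehicle and 2 under flavopiridol, with none lower, and with each library left out the counts were 1 to 3 and 0 to 2. Pmaip1, encoding the BH3-only protein NOXA, was 2.54 to 3.14 FPKM in WT_DMSO and 16.07 to 22.29 in PKD_DMSO (log2 2.38 ± 0.24; adjusted p = 0.002611). Of 7 targets in DNA repair and nucleotide supply none was called under vehicle, and Xpc, a sensor of DNA lesions, had the smallest p (log2 0.38 ± 0.15; limma adjusted p = 0.1073). Under flavopiridol 1 of the 7 rose, Pcna (log2 0.76; limma adjusted p = 0.0266), a call lost in 9 of 16 alternatives. Beside these counts, 14.8% of all genes rose and 7.52% fell under vehicle, and 8.71% rose and 5.23% fell under flavopiridol. Of 12 targets in metabolism and redox control, 1 gene fell and none rose under vehicle, near the share of all genes that fell. That gene was Lpin1, a phosphatidate phosphatase and coregulator of fat oxidation, at 19.80 to 20.01 FPKM in WT_DMSO and 8.99 to 9.05 in PKD_DMSO (log2 -1.06 ± 0.14; adjusted p = 0.005497).

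Of 8 membrane and secreted targets, 2 rose and 1 fell in both genotype comparisons. Over all genes 14.8% rose and 7.52% fell under vehicle, and 8.71% rose and 5.23% fell under flavopiridol. Thbs1, the matrix glycoprotein thrombospondin 1, rose by log2 2.84 ± 0.35 (adjusted p = 0.004616). Dcxr, a xylulose reductase, fell by 1.89 on the log2 scale (SE 0.35; adjusted p = 0.01387), a call lost without WT_DMSO replicate 2 (-1.75) or PKD_DMSO replicate 2 (-1.50). The calls of Sfn, Pmaip1, Lpin1 and Thbs1 under vehicle were kept in all alternatives run.

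Upstream of p53, 2 of 21 tested regulators and partners passed the test as higher in PKD_DMSO against WT_DMSO and none as lower, with a median of 0.17, beside 14.8% higher and a median of 0.12 over all genes. With each library left out the count was 1 to 3. Cdkn2a, whose locus encodes p19ARF, an inhibitor of Mdm2, as well as p16INK4a, was listed at 0.08 and 0.00 FPKM in WT_DMSO, 0.14 and 0.17 in WT_FP, 3.1 and 2.0 in PKD_DMSO and 1.81 and 1.90 in PKD_FP. All 4 polycystic libraries were above all 4 wild-type libraries. No wild-type library reached the 1 FPKM of the filter, so Cdkn2a was tested only because of its polycystic values, and its call, 1 of those 2, is not used here. The files give 1 value for the locus, so its transcripts cannot be told apart. Ppp1r13l, encoding iASPP, an inhibitor of p53, rose by 1.25 ± 0.22 (adjusted p = 0.01164), a call lost without WT_DMSO replicate 2 (1.14), PKD_DMSO replicate 1 (1.18) or PKD_DMSO replicate 2 (1.32). Daxx, a partner of Mdm2, differed by 0.58 ± 0.17 and Chek2, a kinase of the DNA damage signal, by -0.68 ± 0.31, and neither was called (adjusted p = 0.05519 and 0.1608).

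Downstream of p21, the list held 26 cell cycle genes that p53 is known to lower through p21 and the DREAM repressor complex. In PKD_DMSO, where Cdkn1a was 9.95 times higher, 3 of the 26 rose and none fell, beside 14.8% higher over all genes, with a median of 0.42. That count was 0 without WT_DMSO replicate 1, WT_DMSO replicate 2 or PKD_DMSO replicate 2, and 1 without PKD_DMSO replicate 1 or either WT_FP library. In PKD_FP against WT_FP 11 rose and none fell, beside 8.71% higher over all genes, with a median of 0.83. That count was 0 without WT_FP replicate 1 or either PKD_FP library, 2 without WT_FP replicate 2 and 6 without either PKD_DMSO library. Mcm4, a subunit of the replicative helicase, rose by 0.87 ± 0.17 under vehicle (adjusted p = 0.01694; lost without WT_DMSO replicate 1 at 0.85, WT_DMSO replicate 2 at 0.89 or PKD_DMSO replicate 2 at 0.73). With flavopiridol in polycystic kidney all 26 differences were above 0, with a median of 0.52 beside 0.04 over all genes, and limma called none of them.

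**Figure D4:**
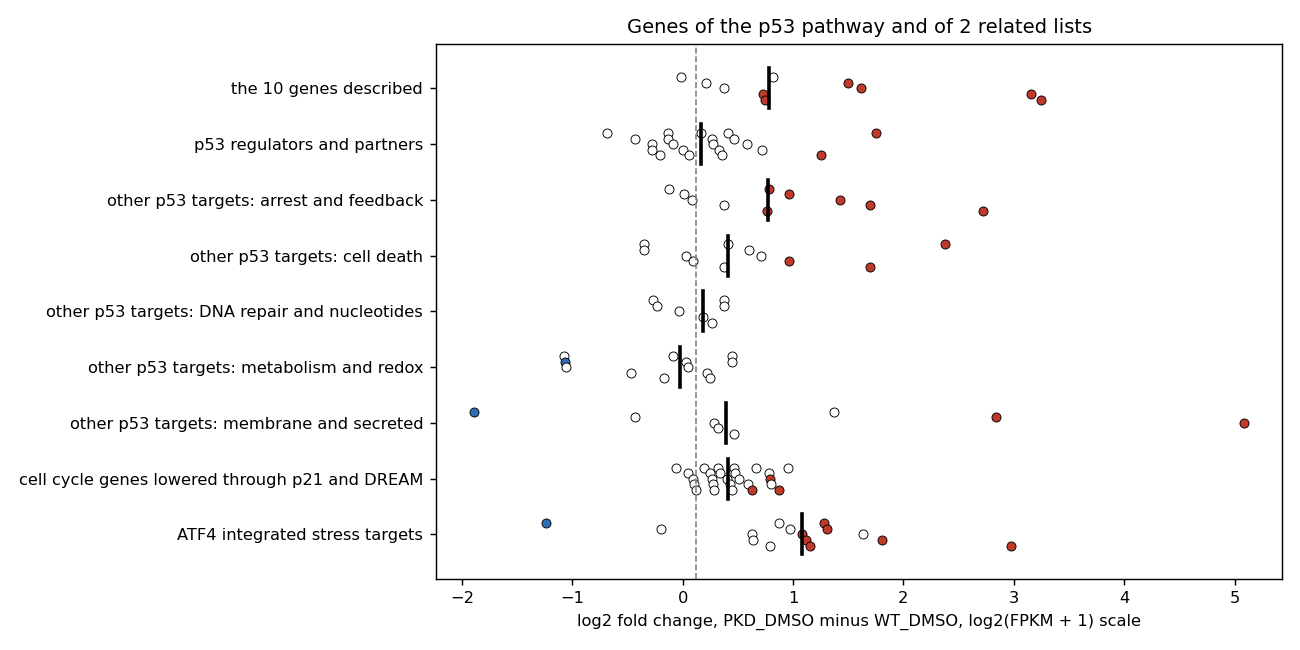
Log2 differences of PKD_DMSO vs WT_DMSO for the tested genes of each p53 list, 1 point a gene, with red (higher) and blue (lower) points for an adjusted p under 0.05, a bar at each median and a dashed line at the median of all genes. The medians are 0.78 for the 10 genes, 0.77 for the other arrest and feedback targets, 0.42 for the cell cycle genes and -0.03 for metabolism and redox targets.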

How the data were processed

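Whole kidney RNA was sequenced in 8 libraries of 4 groups of 2, with groups taken from the sample titles. The authors deposited 1 table of FPKM per library with 20245 entries. The unit was taken from the values, since the headers name none. The submitters' processing notes list mm10, Bowtie2 and DESeq2 with no version and no role. How reads were counted, and on which annotation, is not given. Left out were 4 entries of repeated symbols and 1 without a symbol. A gene was tested if 2 or more libraries reached 1 FPKM (14391 genes). limma 3.58.1 (R 4.3.3) was run on log2(FPKM + 1) of the 8 libraries together, using 1 mean per group and empirical Bayes with trend and robust settings. A difference on that scale understates the change of low genes. Tests are two-sided over 5 contrasts, with Benjamini-Hochberg adjustment over all genes and a threshold of 0.05. The test was checked on simulated data.

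The 10 genes and the lists were chosen with earlier results of these data known. All 10 genes were reported, with up to 4 genes per list by the smallest p in PKD_DMSO vs WT_DMSO, and the 5 nearest profiles of 3 genes. A gene that this rule named is not reported here. Symbols of all 10 were matched to RefSeq (GRCm38.p6) for coordinates and promoters. The search for a 20-base p53 site with mismatches was chosen after the sequences had been seen. Alternatives were median-of-ratios and quantile scaling, a pseudocount of 0.1, no filter, a filter of 5 FPKM, only the groups compared, a replicate block, trend and robust settings off, and each library left out. Leaving out libraries for the counts of single lists was added after the data had been seen.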

Additional observations from a re-analysis of the deposited data

How the results depend on the processing

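Of 790 alternative values of the 10 genes' differences over the 5 contrasts, 732 kept their direction and their side of the threshold, 32 lost a call, 2 gained one and 24 changed sign, all of the last for differences without a call. Leaving out a library leaves 1 in its group, which is then assumed to vary like the other groups. No read counts were available, so the precision that depth gives is unknown.

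The number of the 10 genes called higher in PKD_DMSO vs WT_DMSO was 2 to 6 with each library left out, and in PKD_FP vs WT_FP it was 1 to 5, and 2 with only the groups compared. Of other p53 targets the higher count under vehicle was 7 with the 5 FPKM filter, 6 with the replicate block and 4 to 9 with a library left out, and the lower count 1 to 2. Under flavopiridol the higher count was 6 with the replicate block, 5 with only the groups compared and 1 to 12 with a library left out, and the lower count 1 to 3. Over all genes, calls with a library left out were 496 to 2888 in PKD_DMSO vs WT_DMSO (3212 with all), 187 to 1860 in PKD_FP vs WT_FP (2007 with all), and 0 in PKD_FP vs PKD_DMSO. In PKD_FP vs WT_FP they were 1087 with the block and 1003 with only the groups compared. In PKD_FP vs PKD_DMSO the 2 calls became 1 with a pseudocount of 0.1, with the 5 FPKM filter and with the block, 5 without the filter and with trend and robust settings off, and 0 with only the groups compared. In WT_FP vs WT_DMSO, 3 were called without the filter and 1 with trend and robust settings off, and in the interaction 7 without the filter.

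Signs changed for Bax in PKD_DMSO vs WT_DMSO (0.0519 with quantile normalization, -0.18 to 0.14 with a library left out). In PKD_FP vs PKD_DMSO they changed for Mdm2 (-0.0379 with median-of-ratios scaling, -0.17 to 0.23 with a library left out), Gdf15 (-0.17 to 0.0773) and Bbc3 (-0.15 to 0.29). In WT_FP vs WT_DMSO they changed for Ccng1 (-0.0158 with median-of-ratios scaling, -0.18 to 0.38 with a library left out), Btg2 (-0.0228 with median-of-ratios scaling, -0.0148 with quantile normalization, -0.31 to 0.49 with a library left out), Sesn2 (-0.20 to 0.50) and Bbc3 (-0.0734 to 0.50). In PKD_FP vs WT_FP they changed for Mdm2 (-0.22 to 0.18) and Ccng1 (-0.28 to 0.0154), and in the interaction for Bbc3 (0.0049 with quantile normalization, -0.43 to 0.14 with a library left out) and Btg2 (-0.70 to 0.10). Beyond fewer libraries or genes in a fit, the cause of these shifts was not tested.

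Replicate numbers gave no common pairing of the samples: correlations of the deviations between groups ran from -0.52 to 0.48. WT_DMSO replicate 1 correlated more closely with WT_FP replicate 2 (0.979) than with WT_DMSO replicate 2 (0.969). WT_DMSO replicate 2 was closest to WT_FP replicate 1 (0.986). Whether libraries of different groups share a source of variation was not tested. The replicate block ended the call of Btg2 in PKD_FP vs WT_FP (1.31) and no other call of the 10 genes.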

Other observations

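Targets of ATF4, the factor of the integrated stress response, were counted because Sesn2 and Gdf15 are known to answer to it as well as to p53. Of 15 tested (17 listed), 7 rose and 1 fell in PKD_DMSO vs WT_DMSO, with a median of 1.08. Over all genes 14.8% rose and 7.52% fell there, with a median of 0.12. In PKD_FP vs WT_FP 7 rose and 1 fell, with a median of 0.76. Over all genes 8.71% rose and 5.23% fell there, with a median of 0.07. With each library left out the higher counts were 2 to 9 and 2 to 6. Trib3, 1 of those called under vehicle, reached the 1 FPKM of the filter in no wild-type library. Atf3, a stress-induced repressor, rose by 2.98 ± 0.28 (SE) under vehicle (limma adjusted p = 0.002111). Mthfd2, an enzyme of mitochondrial one-carbon metabolism, rose by 1.15 ± 0.14 (limma adjusted p = 0.004491). Both calls were kept in all alternatives run. Shmt2, another enzyme of that pathway, fell by 1.24 (SE 0.22; limma adjusted p = 0.01182), a call lost without WT_DMSO replicate 2 (-1.15) or PKD_DMSO replicate 2 (-1.12). Limma called none of the 15 in either drug comparison, where the median was -0.01 in polycystic and 0.05 in wild-type kidney.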
